A study of Homo sapiens with 9 samples.

Results

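The general transcription factors and the subunits of TFIID were described in single-cell transcriptomes of U2OS cells, a human osteosarcoma line. The group was taken as a list of 30 gene symbols: TBP, 15 TBP-associated factors (TAFs), and the genes of TFIIA, TFIIB, TFIIE, TFIIF and the TFIIH core. All 30 were among the 36601 genes of the deposited matrices, and all 30 passed the filters on low counts of every test across genes of summed counts. The cells carried RPB1, the largest subunit of RNA polymerase II, with HaloTag or Dendra2 at its N-terminus. HaloTag is an enzyme that binds a synthetic ligand, and Dendra2 is a photoconvertible fluorescent protein. The C-terminal domain (CTD) of the tagged RPB1 had 25, 52 or 70 repeats (25R, 52R and 70R), 52 being the human number. The 6 genotypes were HaloTag-RPB1-25R, HaloTag-RPB1-52R, HaloTag-RPB1-70R, Dendra2-RPB1-25R, Dendra2-RPB1-52R and Dendra2-RPB1-70R. Each was 1 library. Before harvest every line spent 6 days in 1 µg/ml α-amanitin, a toxin that blocks endogenous RNA polymerase II. Untreated cells and cells with untagged RPB1 were not analysed here. The labels do not say whether a line is 1 clone.

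Transcription by RNA polymerase II starts when general transcription factors assemble at a promoter. TFIID, made of TBP and the TAFs, recognises the core promoter. TFIIA and TFIIB stabilise TBP on DNA, TFIIF brings the polymerase, TFIIE recruits TFIIH, and TFIIH opens the DNA with its XPB helicase. Several TFIIH subunits also serve nucleotide excision repair, and several TAFs are shared with the coactivator SAGA.

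The libraries held 2718 to 4677 cells after filtering and 52553686 to 58442223 UMIs (unique molecular identifiers, 1 per captured transcript). Median UMIs per cell were 10812 to 16020 in HaloTag and 15770 to 18739 in Dendra2 libraries. The mitochondrial share was 6.85% to 9.08% and 5.41% to 6.13%. Per the series' design text the 3 HaloTag libraries were sequenced on 2 dates and merged, and the Dendra2 libraries on a later date, so tag and sequencing date cannot be told apart. Any pair of libraries shared at most 7 cell barcodes. The labels call the cells epithelial and their source bone. Of 8 mesenchymal and osteosarcoma markers 5 stood at 10 CPM or more in every library, led by VIM at 2554 to 3784 CPM. Of 8 epithelial markers 2 did so, led by KRT18 at 699 to 1266 CPM, and 3 were under 1 CPM in every library. Leukocyte markers summed to 0.65 to 2.71 CPM.

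Levels are given as CPM, a gene's UMIs scaled by its library's total after edgeR's TMM adjustment. The marker levels above were scaled by library totals alone. UMIs are counted at transcript 3′ ends and are not divided by length, so levels of different genes are printed as ranges and not ranked. Values follow the order HaloTag 25R, 52R and 70R, then Dendra2 25R, 52R and 70R. The 30 members together made up 1438, 1485.5, 1723, 1729, 1641 and 1818 CPM. The lowest count behind any member in any library was 63 UMIs, for TAF4B in Dendra2 52R, where the exact 95% Poisson interval of its 1.23 CPM runs from 0.946 to 1.57 CPM. Such intervals cover counting error only.

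Within TFIID, TBP, the subunit that binds the TATA box (ENSG00000112592, chromosome 6, 170554302 to 170572870 on GRCh38, plus strand), stood at 12.3, 12.5, 16.9, 13.1, 11.4 and 15.7 CPM. The 70R library was the highest within each tag, and the tags overlapped. TAF1, the largest TAF, stood at 13.3, 17.1, 16.7, 15.1, 13.6 and 10.3 CPM, with its extremes in HaloTag 52R and Dendra2 70R. TAF4, a scaffold subunit, had 6.25, 6.97, 5.25, 7.30, 7.34 and 4.46 CPM. Both 70R libraries were its lowest. Its paralog TAF4B, known from germ cells and B cells, had 1.62, 1.55, 1.80, 1.65, 1.23 and 1.78 CPM. TAF9, a histone-fold subunit, had 78.1, 121, 118, 110.2, 119.9 and 145 CPM, lowest in each tag at 25R. TAF9 overlaps AK6 on the same strand, so 3′ reads of the pair may not be separable. Its paralog TAF9B had 11.0, 15.9, 17.2, 11.9, 16.1 and 13.6 CPM, again lowest at 25R in each tag.

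TAF8, which carries TAF10 into TFIID, stood at 16.7, 23.5, 24.5, 21.3, 28.3 and 25.5 CPM, lowest at 25R in each tag. TAF12, the histone-fold partner of TAF4, stood at 48.1, 32.5, 36.3, 36.4, 30.2 and 25.6 CPM, highest at 25R in each tag. TAF11, the partner of TAF13, was at 109.5, 157 and 147 CPM in HaloTag and at 186, 186 and 195 CPM in Dendra2 libraries. These groups did not overlap. TAF6, a partner of TAF9, did not overlap either, at 35.3 to 40.3 CPM in HaloTag and 41.8 to 45.7 CPM in Dendra2 libraries. The other TAFs were TAF5, a WD40-repeat scaffold subunit, at 9.28 to 12.8 CPM, TAF2, a core promoter contact, at 32.8 to 44.9 CPM, and TAF3, which reads trimethylated histone H3, at 31.3 to 46.5 CPM. TAF7, which restrains TAF1, ranged from 67.7 to 84.6 CPM, TAF10 from 96.7 to 129 CPM and TAF13 from 23.2 to 38.9 CPM.

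Of the TFIIA genes, GTF2A1, which encodes the precursor of the α and β subunits, had 16.5, 19.96, 22.3, 17.2, 21.2 and 25.4 CPM, in the order 25R, 52R, 70R within each tag. GTF2A2, which encodes the γ subunit, had 272, 257, 353, 339.8, 361 and 392 CPM. GTF2B, the gene of TFIIB, had the narrowest spread, from 36.6 to 42.9 CPM, a ratio of 1.17. The TFIIE genes GTF2E1 and GTF2E2 ranged from 7.10 to 10.2 CPM and from 36.1 to 47.4 CPM. In TFIIF, the large-subunit gene GTF2F1 ranged from 52.7 to 83.1 CPM. The small-subunit gene GTF2F2 (ENSG00000188342, chromosome 13, 45120510 to 45284893, plus strand) had 85.9, 87.8, 113, 220.2, 109 and 159 CPM, highest in Dendra2 25R, and its tags overlapped.

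Among genes of the TFIIH core, GTF2H5, the small subunit mutated in a form of trichothiodystrophy, had 139.8, 132, 238, 117, 136 and 129 CPM, and HaloTag 70R stood apart above the other libraries. GTF2H3 had 29.3, 23.4, 29.2, 27.6, 21.5 and 28.9 CPM, lowest at 52R in each tag. ERCC2, the XPD helicase gene, had 3.28, 6.37, 6.87, 8.64, 6.74 and 8.38 CPM, lowest in HaloTag 25R. ERCC3, the XPB gene, ranged from 14.7 to 20.7 CPM, GTF2H1 from 25.0 to 37.9 CPM, GTF2H2 from 17.7 to 23.9 CPM and GTF2H4 from 11.9 to 19.2 CPM. GTF2H2 has near-identical copies in the genome, so its counts are uncertain.

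**Figure D1:**
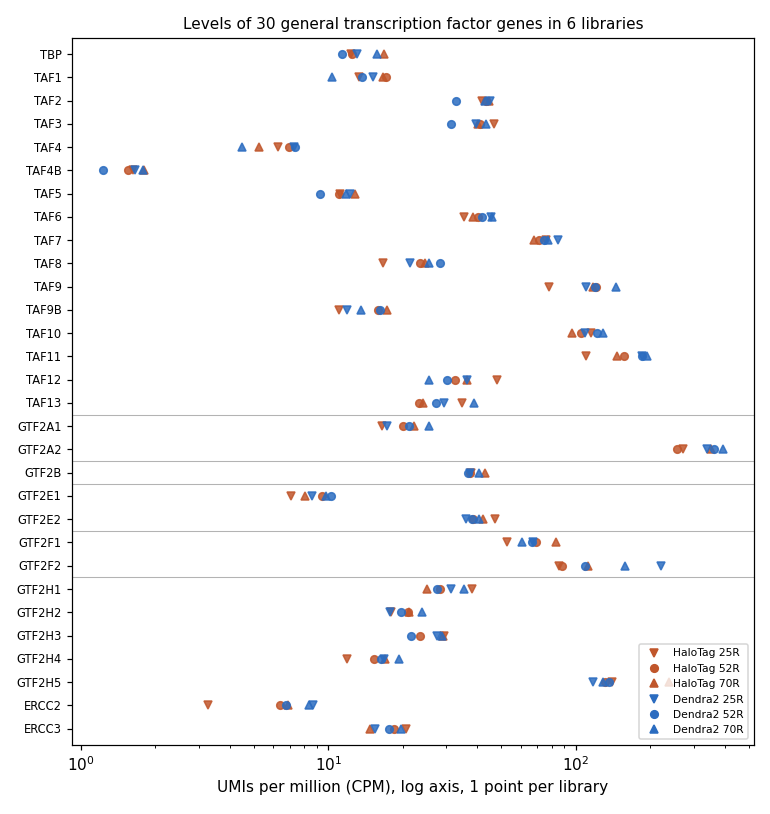
Level of each of the 30 genes, in CPM on a log axis, with 1 point per library (orange HaloTag, blue Dendra2; triangle down 25R, circle 52R, triangle up 70R) and lines between complexes. Most genes keep their 6 points close together. ERCC2 spreads most on this axis, from 3.28 to 8.64 CPM, followed by GTF2F2 from 85.9 to 220.2 CPM. HaloTag 70R stands apart for GTF2H5 at 238 CPM.

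The first comparison, HaloTag against Dendra2 at matched CTD length, asks whether the N-terminal tag goes with a different level of these factors. None of the 30 members passed an adjusted p of 0.05 in edgeR's quasi-likelihood test (0.26% of all 18069 genes did). The members' median log2 difference was -0.02, beside 0.03 over all genes, with 14 members above and 16 below 0. Counts with an unadjusted p under 0.05 were 3 of 30 members and 19.5% of all genes. The tags' libraries did not overlap for 2 of 30 members, TAF6 and TAF11, and for 24.3% of all genes.

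TAF11 came nearest the threshold, with a log2 difference of -0.47 ± 0.14 (SE, 6 libraries; edgeR adjusted p = 0.170). GTF2F2 had the widest difference, -0.72 ± 0.22 (adjusted p = 0.170), lower with HaloTag in all 3 pairs. DESeq2 put GTF2F2 past the threshold at -0.73 (adjusted p = 0.0274), the only member it did (7.24% of the 15616 genes with a DESeq2 adjusted p passed). The GTF2F2 difference was -0.43 without HaloTag 25R and likewise without Dendra2 25R. Either omission leaves the same complete tag pairs, so these are not separate checks. GTF2A2 had -0.32 ± 0.12 (adjusted p = 0.236). In the other direction TAF12 had 0.34 ± 0.14 (adjusted p = 0.258), higher with HaloTag in 3 of 3 pairs, GTF2H5 had 0.36 ± 0.19 and TAF1 had 0.28 ± 0.20. Without HaloTag 70R the GTF2H5 and TAF1 differences were 0.10 and 0.07, and without Dendra2 70R the same, again from the same complete pairs. TBP (0.05 ± 0.14), TAF4 (-0.02 ± 0.19), TAF4B (0.11 ± 0.26), TAF9 (-0.26 ± 0.14) and TAF9B (0.07 ± 0.16) also stayed short of the threshold. For 28 of 30 members the 95% interval of the difference lay within a 2-fold change either way. The exceptions were GTF2F2, from -1.24 to -0.20, and ERCC2, from -1.28 to 0.12.

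Comparisons of CTD length asked whether a shorter or longer RPB1 tail goes with other levels of the factors that load the polymerase. None of the 30 members passed the threshold for 25R against 52R (0.0443% of all genes did), for 70R against 52R (0% of all genes) or for 70R against 25R (0% of all genes). Members with an unadjusted p under 0.05 numbered 3, 1 and 4, beside 12.7%, 4.63% and 12.3% of all genes. The members' medians were -0.01, 0.13 and 0.10, beside 0.01, -0.01 and -0.02 over all genes. These 3 comparisons share libraries.

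Between 25R and 52R, TAF8 came nearest the threshold, with a log2 difference of -0.45 ± 0.17 (SE; adjusted p = 0.357). The paralogs TAF9B and TAF9 had -0.48 ± 0.19 and -0.38 ± 0.17, both lower at 25R in both tags. TAF12 had 0.41 ± 0.17 (adjusted p = 0.390) and GTF2H3 0.34 ± 0.15, both higher at 25R in both tags. GTF2F2 had 0.51 ± 0.26, with pairs of -0.03 in HaloTag and 1.01 in Dendra2. Between 70R and 52R, TBP had 0.44 ± 0.18 (adjusted p = 0.961), higher at 70R in both tags, GTF2H3 had 0.37 ± 0.15 and GTF2A2 0.29 ± 0.15. TAF4 had -0.56 ± 0.23, while its paralog TAF4B had 0.37 ± 0.32. TAF1 and GTF2E1 had -0.20 ± 0.24 and -0.15 ± 0.19. The sign for TAF1 turned to 0.09 without Dendra2 70R.

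Between the extreme lengths, 70R against 25R, GTF2A1 had 0.50 ± 0.16 (adjusted p = 0.341), TAF9 0.49 ± 0.17 and TAF8 0.41 ± 0.17. Each was higher at 70R in both tags. TAF12 had -0.46 ± 0.17, TAF4 -0.48 ± 0.23 and TAF7 -0.14 ± 0.14. TBP had 0.35 ± 0.18 and TAF9B 0.42 ± 0.19. Intervals within a 2-fold change were found for 27, 26 and 27 members in the 3 comparisons. ERCC2 fell outside in all of them, with GTF2F2 and TAF4B in those against 52R, TAF4 in those with 70R and GTF2H5 between 70R and 25R.

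**Figure D2:**
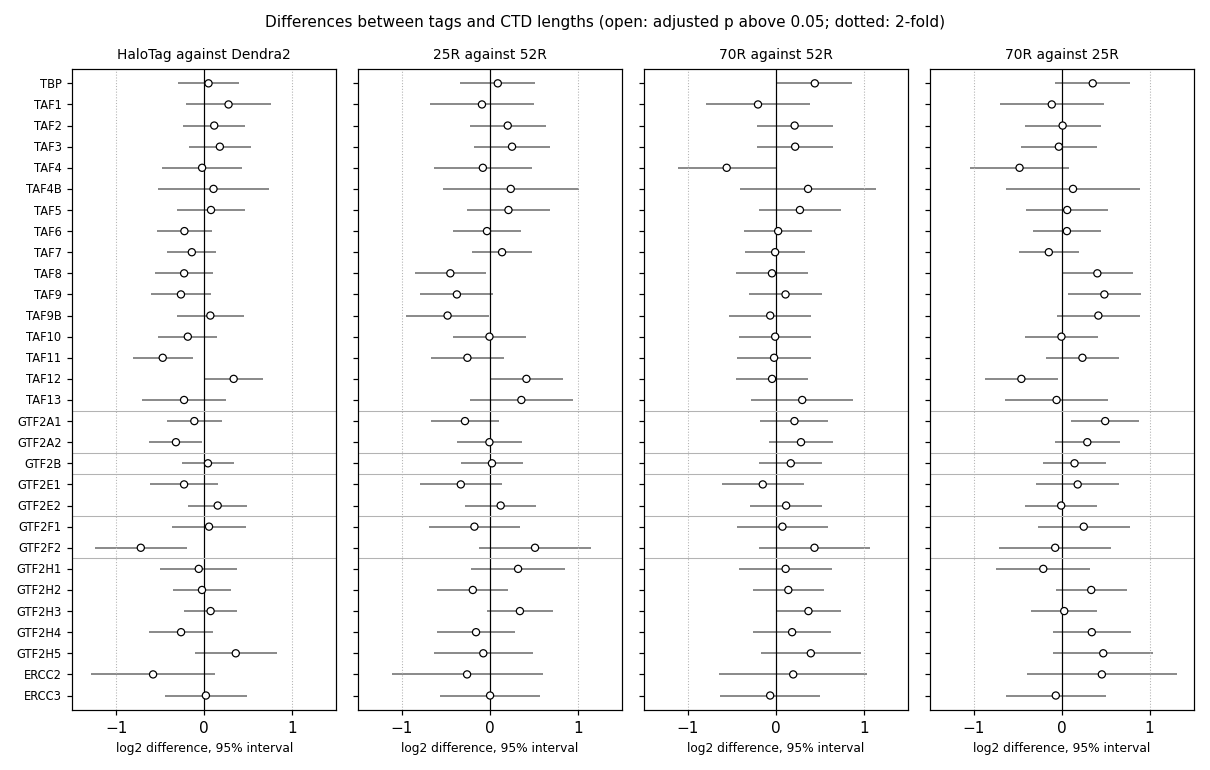
Log2 difference of each gene with its 95% interval for the tag and the 3 comparisons of CTD length, from edgeR fits of 6 libraries. All points are open because none of the 30 passed an adjusted p of 0.05, and most intervals stay inside the dotted lines of a 2-fold change.

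The members were next compared between cell cycle phases, which the cells of each library supply. Each cell was called G1, S or G2/M from lists of 43 S phase and 54 G2/M phase genes that hold none of the 30 members, after thinning to 5000 UMIs. Shares of G1-called cells were 43.1% to 50.9% in HaloTag and 25.4% to 34.4% in Dendra2 libraries, of S-called cells 28.3% to 33.0% and 40.6% to 49.0%, and of G2/M-called cells 18.8% to 24.0% and 23.1% to 25.6%. Without thinning, G1 shares were 42.8% to 49.1% and 23.4% to 30.6%. Calls within 0.05 of a score boundary made up 16.6% to 24.8% of G1-called cells in HaloTag and 37.8% to 48.7% in Dendra2 libraries. G2/M-called cells were deeper: their median UMIs were 13949 to 22063, beside 9362 to 15862 in G1-called cells. Each phase result was therefore also computed in cells of 10000 to 20000 UMIs.

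Most of the basal machinery took a larger share of the RNA in G2/M-called cells. Rises and falls between phases are changes in this share, measured as CPM, and not in UMIs per cell. Of 30 members 18 rose and 2 fell against G1-called cells (57.2% of all 16303 genes passed, 25.4% higher and 31.8% lower). Their median log2 difference was 0.19, beside -0.05 over all genes. TFIID had 10 of 16 members higher and TAF10 lower, both TFIIA and both TFIIE genes were higher, TFIIF had GTF2F2 higher, and the TFIIH core had 3 of 7 higher and GTF2H5 lower. In cells of 10000 to 20000 UMIs 16 rose and 2 fell. The shares of all genes above belong to the main fit, and none is set beside this count.

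TAF5 (ENSG00000148835, chromosome 10, 103367966 to 103389065, plus strand) had the widest change of the 30. Its level was 5.40 to 9.14 CPM (median 7.58) in G1-called, 8.54 to 13.4 CPM (11.0) in S-called and 13.1 to 22.1 CPM (17.0) in G2/M-called sums of the 6 libraries. G1 and G2/M values did not overlap. The log2 difference from G1 was 1.27 ± 0.10 (SE, 6 libraries; adjusted p = 1.41e-08), a 2.41-fold rise found in 6 of 6 libraries. TBP went from 9.20 to 14.2 CPM (10.2) over 10.6 to 18.4 CPM (13.7) to 14.3 to 19.0 CPM (16.3), a rise of 0.61 ± 0.06 (adjusted p = 2.47e-07). Its G2/M values lay above all its G1 values. TAF4 went from a median of 5.32 CPM (3.60 to 5.76) to 7.75 CPM (5.56 to 9.50), a rise of 0.63 ± 0.08 (adjusted p = 1.8e-06). Its paralog TAF4B had 0.22 ± 0.16 and did not pass the threshold.

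Among other TAFs, TAF3 rose by 0.29 ± 0.05, from 26.4 to 42.6 CPM (36.5) to 34.8 to 49.7 CPM (45.4). TAF1 rose by 0.27 ± 0.06, from 10.1 to 16.7 CPM (12.7) to 11.5 to 19.8 CPM (15.7). TAF8 rose by 0.25 ± 0.05, from 16.6 to 26.7 CPM (22.9) to 18.5 to 31.9 CPM (28.7). In these 3 the libraries' G1 and G2/M ranges overlapped, while every single library was higher in G2/M. TAF6 rose by 0.22 ± 0.05, to 39.2 to 47.7 CPM from 31.4 to 44.6 CPM. Fitted within HaloTag libraries its rise was 0.38 ± 0.07, and within Dendra2 libraries its difference was 0.11 ± 0.05 and did not pass (adjusted p = 0.0992). The test of the difference between tags did not pass either (0.25 ± 0.08, adjusted p = 0.0663). TAF2 rose by 0.17 ± 0.04 and TAF11 by 0.15 ± 0.03, each in 6 of 6 libraries. TAF7 rose by 0.16 ± 0.05 in 5 of 6 libraries, from a median of 73.8 to 84.9 CPM. TAF10, shared by TFIID and SAGA, fell by 0.19 ± 0.03 (adjusted p = 8.31e-05), from 106 to 133 CPM (117) to 88.3 to 125 CPM (103), lower in 6 of 6 libraries. TAF9 (0.02 ± 0.04), TAF9B (0.07 ± 0.06), TAF12 (-0.03 ± 0.06) and TAF13 (-0.03 ± 0.05) did not pass. Within HaloTag libraries TAF9 passed at 0.14 (edgeR adjusted p = 0.0181), and within Dendra2 libraries it had -0.06 (adjusted p = 0.219). The test of the difference between tags did not pass for TAF9.

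Both TFIIA genes rose. GTF2A1 stood at 14.1 to 22.1 CPM (17.96) in G1-called and 20.3 to 31.5 CPM (24.9) in G2/M-called cells, a rise of 0.52 ± 0.05 (adjusted p = 1.04e-07). GTF2A2 went from 220.0 to 368 CPM (323) to 312 to 441 CPM (367), a rise of 0.29 ± 0.05. In TFIIE, GTF2E1 rose by 0.49 ± 0.07, from 6.83 to 8.52 CPM (7.68) to 9.58 to 12.3 CPM (11.0), with no overlap. GTF2E2 rose by 0.28 ± 0.04, from 34.1 to 43.3 CPM (37.4) to 38.1 to 56.9 CPM (44.01). GTF2F2 rose by 0.41 ± 0.06 (adjusted p = 1.44e-05), from 69.2 to 208 CPM (99.6) to 109.9 to 245 CPM (129). Its TFIIF partner GTF2F1 had 0.07 ± 0.04 and TFIIB's gene GTF2B 0.02 ± 0.04, and neither passed. Within Dendra2 libraries GTF2F1 passed at 0.13 (edgeR adjusted p = 0.0273), and within HaloTag libraries it had 0.06 (adjusted p = 0.369). For GTF2F1 too the test of the difference between tags did not pass.

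In the TFIIH core, GTF2H5 fell by 0.26 ± 0.03 (adjusted p = 7.48e-07), from 127 to 262 CPM (147) to 107 to 209 CPM (123), in 6 of 6 libraries. This fall is of CPM. In UMIs per cell GTF2H5 was higher in the deeper G2/M-called cells of each library, at 2.12 to 3.07 beside 1.84 to 2.73 in G1-called cells. HaloTag 70R held the highest GTF2H5 level in each phase. GTF2H2 rose by 0.25 ± 0.05, from a median of 18.2 to 22.3 CPM. ERCC3 rose by 0.20 ± 0.06 (16.6 to 18.9 CPM) and GTF2H3 by 0.18 ± 0.04 (26.1 to 30.1 CPM). The calls of ERCC3 and GTF2H3 were lost in cells of 10000 to 20000 UMIs, at 0.12 (adjusted p = 0.215) and 0.13 (adjusted p = 0.103), and that of ERCC3 also within Dendra2 libraries (0.17, adjusted p = 0.111). ERCC2, GTF2H1 and GTF2H4 had 0.02, 0.05 and 0.03, and none of these passed.

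**Figure D3:**
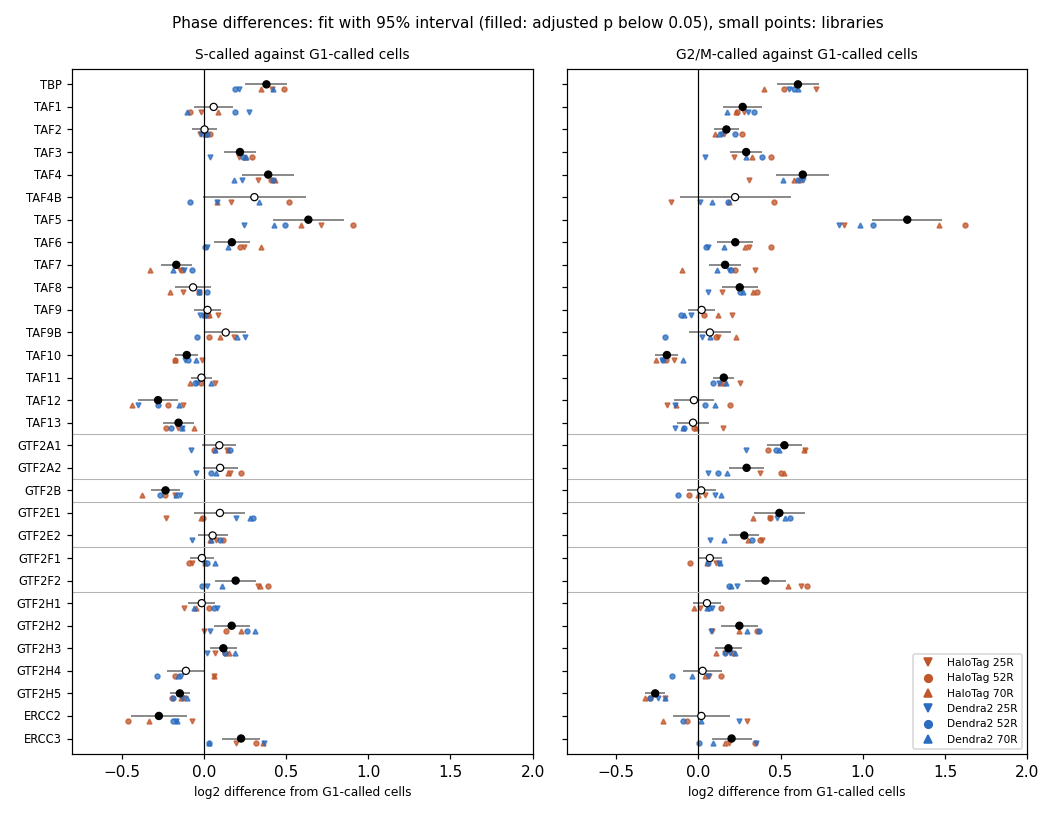
Log2 difference of S-called (left) and G2/M-called (right) from G1-called cells, with the fit's 95% interval (filled where the adjusted p is under 0.05) and small points for the libraries. Library points use CPM plus 1, so low genes lie closer to 0 than the fit. TAF5 stands farthest to the right in G2/M at 1.27, and GTF2H5 and TAF10 are the 2 filled points left of 0.

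S-called cells gave a mixed picture. Against G1-called cells 9 members rose and 7 fell (49.9% of all genes passed, 22.3% higher and 27.6% lower), with a median of 0.06 beside -0.04. TAF5 rose by 0.64 ± 0.10, TAF4 by 0.39 ± 0.08 and TBP by 0.38 ± 0.06 (adjusted p = 5.71e-05), each in 6 of 6 libraries. TAF3 (0.22), ERCC3 (0.23), GTF2F2 (0.19), TAF6 (0.17), GTF2H2 (0.17) and GTF2H3 (0.12) rose by less. The S and G2/M comparisons share their G1 sums.

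GTF2B fell in S-called cells by 0.23 ± 0.04 (adjusted p = 0.000196), from 38.2 to 46.4 CPM (40.7) to 34.1 to 36.3 CPM (34.4). Its G1 and S values did not overlap, and G2/M-called cells stood at 37.9 to 46.4 CPM (40.4). TAF12 fell by 0.28 ± 0.06, from 25.9 to 50.6 CPM (36.9) to 23.3 to 46.2 CPM (29.1). TAF7 fell by 0.17 ± 0.05, from a median of 73.8 to 67.7 CPM, and TAF13 by 0.15 ± 0.05, from 30.5 to 27.1 CPM. ERCC2 fell by 0.27 ± 0.08, from 7.64 to 6.21 CPM. GTF2H5 fell by 0.15 ± 0.03, from 147 to 132 CPM, and TAF10 by 0.10 ± 0.03, from 117 to 112 CPM. Side by side with these stand the G2/M differences of GTF2B (0.02), TAF12 (-0.03), TAF13 (-0.03) and ERCC2 (0.02), which did not pass, and that of TAF7 (0.16), which did.

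Several S calls did not hold in each tag alone. Within Dendra2 libraries the calls of GTF2F2 (0.06, adjusted p = 0.255), TAF6 (0.08, adjusted p = 0.256), ERCC3 (0.15, adjusted p = 0.134), GTF2H3 (0.13, adjusted p = 0.104), ERCC2 (-0.17, adjusted p = 0.225) and TAF10 (-0.07, adjusted p = 0.150) were lost. Within HaloTag libraries those of GTF2H2, GTF2H3, TAF10 and TAF13 were lost. Other members passed in S-called cells of 1 tag only. GTF2A2 had 0.20 in HaloTag (edgeR adjusted p = 0.00317) and 0.04 in Dendra2 libraries. GTF2E1 had 0.30 in Dendra2 (adjusted p = 0.0152) and -0.07 in HaloTag libraries. GTF2H4 had -0.18 in Dendra2 (adjusted p = 0.0467) and 0.01 in HaloTag libraries. The test of the difference between tags passed in S-called cells for GTF2F2 only. The other contrasts are therefore not read as differences between tags. Of 9 alternatives that leave out no single library, the ERCC2 call was lost in 5, at -0.22 to -0.17, and the TAF10 call in 4, at -0.09 to -0.05. Some S calls rested on single libraries. TAF10 lost its call without HaloTag 52R (adjusted p = 0.0634) or HaloTag 70R (0.0709), ERCC2 without HaloTag 52R (0.0668), and GTF2H2 (0.052) and GTF2H3 (0.053) without Dendra2 70R. No G2/M call was lost by leaving out any library. Without a filter on low counts 2 of the 7 falls in S-called cells passed. With library totals as scaling 12 members rose and 7 fell in S-called cells, and 19 rose and 2 fell in G2/M-called cells. No share of all genes is set beside the counts of these alternatives.

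**Figure D4:**
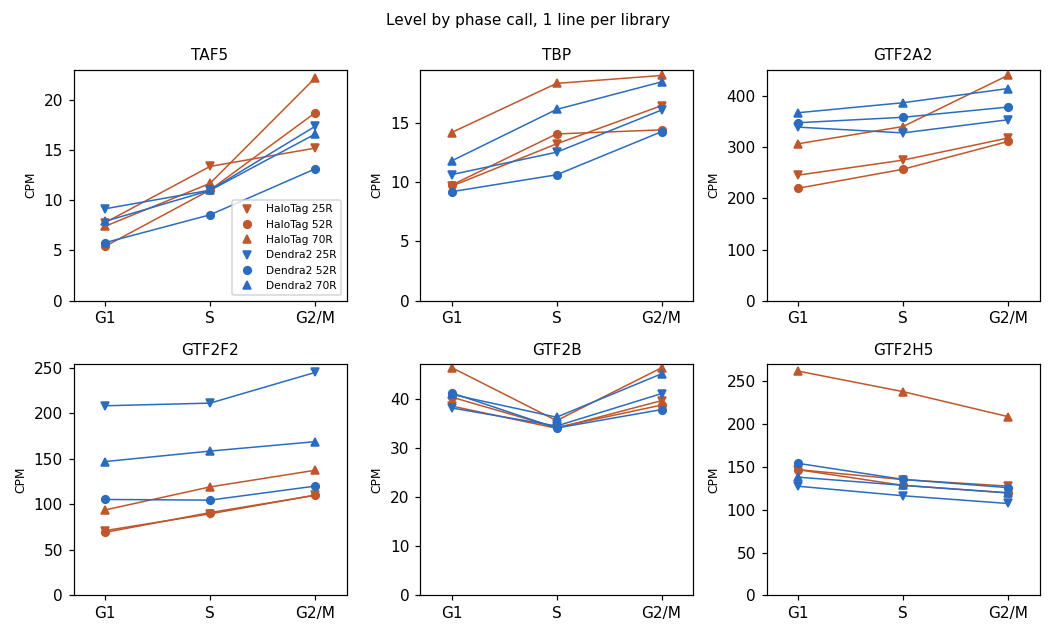
CPM by phase call for 6 genes, with 1 line per library (orange HaloTag, blue Dendra2) and axes that start at 0. TAF5 and TBP climb from G1 to G2/M in each library. GTF2B dips in S to 34.1 to 36.3 CPM, and the CPM of GTF2H5 declines in each library.

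The size of the G2/M difference was then compared between tags with an interaction term. It differed for 2 members, GTF2F2 and GTF2A2 (8.04% of all 16772 genes passed), and in S-called cells for GTF2F2 (4.8% passed). Among all genes that passed, 1105 of 1348 in G2/M-called and 717 of 805 in S-called cells had the higher difference in HaloTag libraries. Neither the counts of members nor their direction is read as particular to them. In G1-called cells GTF2F2 stood at 71.1, 69.2 and 93.8 CPM in HaloTag and at 208, 105 and 147 CPM in Dendra2 libraries. In G2/M-called cells it stood at 110.1, 109.9 and 137 CPM and at 245, 120.0 and 169 CPM. HaloTag libraries lay below all Dendra2 libraries in G1, and not in G2/M. The share of all genes that did so was not counted. Fitted within HaloTag libraries its G2/M rise was 0.64 ± 0.05, and within Dendra2 libraries 0.23 ± 0.04. The difference was 0.38 ± 0.06 (adjusted p = 0.000243). For GTF2A2 the rise was 0.49 ± 0.05 and 0.14 ± 0.03, a difference of 0.33 ± 0.05 (adjusted p = 0.000518). The larger share of Dendra2 G1 calls near a boundary moves with this result. In cells at least 0.05 from the boundary the differences were 0.31 (adjusted p = 0.026) for GTF2F2 and 0.29 (adjusted p = 0.00682) for GTF2A2. In cells of 10000 to 20000 UMIs they were 0.28 (adjusted p = 0.0595) and 0.30 (adjusted p = 0.00251), and the GTF2F2 call was lost. Within G1-called cells alone the tag difference of GTF2F2 was -0.90 ± 0.21 (adjusted p = 0.0892) and that of GTF2A2 -0.43 ± 0.13 (adjusted p = 0.139).

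Promoter sequences are shown for TAF5, TBP, GTF2A1 and GTF2F2, 4 members that rose in G2/M-called cells, and for GTF2H5, which fell. They are RefSeq promoters (GRCh38.p14) for the bases before the annotated gene start, written 5′ to 3′ on the gene's strand. Capitals mark TTTGAA or TTTAAA, the letters of the CHR, a short element of many promoters active in G2/M that the MuvB complex binds.
TAF5 (chr10:103367726-103367965, plus strand): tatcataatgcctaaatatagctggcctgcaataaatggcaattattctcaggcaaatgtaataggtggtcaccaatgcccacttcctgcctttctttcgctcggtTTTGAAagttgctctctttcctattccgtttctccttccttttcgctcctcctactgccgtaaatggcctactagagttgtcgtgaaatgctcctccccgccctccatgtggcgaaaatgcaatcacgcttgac
TBP (chr6:170554119-170554301, plus strand): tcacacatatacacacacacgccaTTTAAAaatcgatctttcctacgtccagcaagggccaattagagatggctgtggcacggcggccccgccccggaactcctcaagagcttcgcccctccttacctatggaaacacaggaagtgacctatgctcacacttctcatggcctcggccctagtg
GTF2A1 (chr14:81221391-81221640, minus strand): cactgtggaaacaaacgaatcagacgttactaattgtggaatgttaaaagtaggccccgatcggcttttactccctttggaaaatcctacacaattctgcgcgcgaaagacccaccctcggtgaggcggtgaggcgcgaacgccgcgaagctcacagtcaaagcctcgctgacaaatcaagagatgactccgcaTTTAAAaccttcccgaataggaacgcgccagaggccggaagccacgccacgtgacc
GTF2F2 (chr13:45120260-45120509, plus strand): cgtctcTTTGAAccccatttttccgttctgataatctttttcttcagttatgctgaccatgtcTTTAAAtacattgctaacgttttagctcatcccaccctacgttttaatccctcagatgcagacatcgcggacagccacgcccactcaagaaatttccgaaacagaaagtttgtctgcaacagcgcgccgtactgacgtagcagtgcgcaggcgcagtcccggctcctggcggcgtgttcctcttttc
GTF2H5 (chr6:158168100-158168349, plus strand): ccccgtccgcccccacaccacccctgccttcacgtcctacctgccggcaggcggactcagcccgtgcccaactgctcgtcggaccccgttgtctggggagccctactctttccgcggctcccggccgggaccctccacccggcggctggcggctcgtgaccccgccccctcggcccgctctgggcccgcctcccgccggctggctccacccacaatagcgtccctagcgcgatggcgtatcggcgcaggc
A RefSeq promoter was matched for 27 of the 30 members. The CHR letters, searched on both strands in the 250 bases before the start, were in 6 of these 27 and in 22.1% of 27305 promoters. The 6 were TAF5, TAF6, TAF7, TBP, GTF2A1 and GTF2F2. Of the 15 matched members that rose in G2/M-called cells 6 held the letters and 9 did not, among them TAF3, TAF4, GTF2A2 and GTF2E1, so the 4 printed promoters of risers are not typical of them. Of the 12 others 0 held the letters. This split was counted after the calls were seen and was not tested. Counted to the RefSeq start site, which for TAF5 and TBP lies past the printed bases, the match starts 144 bases before it in TAF5, 226 in TBP, 56 in GTF2A1, and 244 and 187 in GTF2F2. The letters CCAAT were in 9 of 27 (33% of all promoters) and the letters GGGCGG in 15 (42.3%). TATAAA was in 1, GTF2B, 29 bases before its start (11.1% of all promoters). A match is a description of the letters, not a test of binding.

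The authors' kinetic tables give each gene a burst frequency, K in the table's own unit, and a mean UMI count per cell. Burst size was taken as the mean over K. None of the 30 members differed between tags or between 25R and 52R in frequency or size when limma was run on all 36541 genes with values (0% of all genes passed in each test). Unadjusted p under 0.05 were found for 4 members in size between tags (6.31% of all genes) and 0 in the other 3 tests. The limits of K were wide for most members: over the 19 with a mean under 0.5 UMIs per cell in some library, K ran from 0.208 to 50.4, and its upper limit was up to 3700 times its lower one.

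For the 11 members with a mean of at least 0.5 in every library, the limits were at most 2.95 times apart. GTF2F2 had the lowest K of these in every library, at 1.95, 1.36, 1.26, 1.12, 1.45 and 1.19, while the other 10 ranged from 2.38 to 5.62. Its burst size was 0.75, 0.992 and 1.06 UMIs in HaloTag and 3.15, 1.40 and 2.63 UMIs in Dendra2 libraries. In limma on the 3188 genes with that mean, its log10 size difference between tags was -0.39 ± 0.08 (SE; adjusted p = 0.000281). TAF11, at 0.543, 0.571 and 0.412 UMIs in HaloTag and 0.878, 0.772 and 0.862 UMIs in Dendra2 libraries, had -0.22 ± 0.08 (adjusted p = 0.0456). These 2 of 11 stand beside 17% of all 3188 genes, of which 523 of 542 were lower with HaloTag. Median UMIs per cell were 16020 in HaloTag 25R and 15770 in Dendra2 25R, the pair with the widest GTF2F2 gap, and lower in HaloTag at 52R and 70R. The part of depth in the size differences was not tested. With each library centred on its median, GTF2F2 passed alone at -0.27 ± 0.08 (adjusted p = 0.0433; 7.59% of all genes passed). Frequency differed for none of the 11 between tags (6.93% of the 3188 genes passed) or between 25R and 52R (1.44%).

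Cell-to-cell variation of each member was set beside that of the 200 genes nearest in mean in the same library. GTF2F2 had a squared coefficient of variation of 1.20, 1.48, 1.54, 1.18, 1.18 and 1.16, where the median of genes of like mean was 1.01, 1.05, 1.08, 0.629, 0.775 and 0.637. It lay above 84% to 98.5% of those genes. The log2 ratio was 0.25 to 0.90, and the other 29 members ranged from -0.25 to 0.17. Above the median in all 6 libraries were TAF5, GTF2A1, GTF2A2 and GTF2F2. Below it in all 6 were 9 members: TAF8, TAF10, TAF11, GTF2B, GTF2F1, GTF2H1, GTF2H4, GTF2H5 and ERCC3. The share of all genes on the same side in all 6 libraries was not counted, so neither count is read as unusual. GTF2H5 had the lowest ratios, -0.25 to -0.14, followed by TAF10 at -0.24 to -0.09. These are descriptions of 1 library per genotype with no test. K falls as the variation for a given mean rises, so the low K of GTF2F2 and its high variation are not separate observations.

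**Figure D5:**
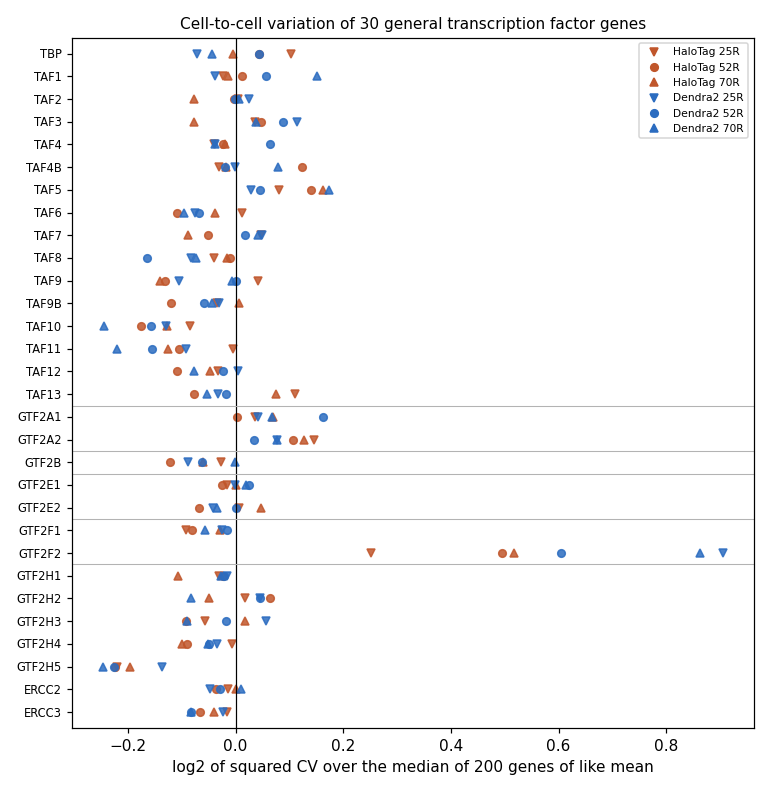
Log2 of the squared coefficient of variation of each gene over the median of 200 genes of like mean, with 1 point per library. GTF2F2 lies to the right of all others in each library, from 0.25 to 0.90, and GTF2H5 and TAF10 lie left of 0 in each.

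The wider pathway was read from 5 further lists. In the tag and CTD comparisons none of their genes passed. Beside the counts in G2/M-called cells that follow, 25.4% of all genes rose and 31.8% fell. Of the TFIIH kinase module, which phosphorylates the CTD, 3 of 3 rose in G2/M-called cells: MNAT1 by 0.24 ± 0.03, CCNH by 0.15 ± 0.04 and CDK7 by 0.15 ± 0.05. CDK7 fell in S-called cells by 0.29 ± 0.05. Of TBP relatives and regulators 4 of 8 could be tested, and 3 rose: DR1, the NC2 subunit that represses at TBP, by 0.59 ± 0.05, BTAF1, which removes TBP from DNA, by 0.35 ± 0.07, and TBPL1 by 0.22 ± 0.04. The coactivator SAGA had 9 of 15 tested genes higher and 2 lower. TAF5L, its paralog of TAF5, rose by 0.54 ± 0.08, TADA1 by 0.50 ± 0.06, and TADA3 fell by 0.20 ± 0.04.

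Of 13 repair genes that work with TFIIH 3 rose and 4 fell in G2/M-called cells. CETN2 fell by 0.25 ± 0.03 and XPC by 0.28 ± 0.05, both members of the damage-sensing complex. Of 12 RNA polymerase II subunit genes 6 rose and 1 fell. POLR2D rose by 0.61 ± 0.06 and POLR2B by 0.31 ± 0.04, POLR2L fell by 0.09 ± 0.03, and POLR2A, the gene of RPB1, had -0.10 ± 0.06 and did not pass. In S-called cells POLR2A fell by 0.31 ± 0.06. The medians in G2/M-called cells were 0.15 for the kinase module, 0.28 for TBP relatives, 0.14 for SAGA, -0.05 for repair genes and 0.07 for polymerase subunits, beside -0.05 over all genes.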

How the data were processed

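Single-cell RNA was counted in 6 libraries with a 3′ droplet chemistry, per the labels' protocols. Per the file headers the authors counted UMIs per gene and cell with Cell Ranger 6.1.2, on GRCh38 per the submitters' processing notes. Kinetic tables deposited by the authors hold a mean, K and squared coefficient of variation per gene (a score in its own unit) with limits, fitted with a beta-Poisson model (per the file headers).

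Barcodes under 500 genes or over 20% mitochondrial counts, 2.01% to 3.03% per library, were dropped. No doublet caller was run. Rows of the tag sequences were left out. Counts were summed per library, filtered with filterByExpr (18069 genes), TMM-scaled and fitted by edgeR 4.0.16 (quasi-likelihood, tag plus CTD length; R 4.3.3). Adjusted p-values are Benjamini-Hochberg over all genes tested, at 0.05. With 1 library per genotype the spread comes from the tag by CTD interaction, with 2 residual degrees of freedom, so p-values measure only the spread between these libraries, which may be technical. No replicate cultures enter.

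Phase scores used 50 control genes per list member in 25 expression bins, and 18 sums (library by phase) were fitted with the library as block (16303 genes). The same cells' counts entered phase calls and tests, though no member was in a list. Within-library values use CPM with a pseudocount of 1. Burst frequency and size were tested as log10 values with limma 3.58.1 (trended variance). Fits were tested on simulated data. DESeq2 1.42.0, other scalings, filters and left-out libraries were alternatives. Gene positions come from GENCODE 44, promoters from RefSeq. Protein sequences were not used here.

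All 30 members are described by role. Values are given for members past the threshold and for up to 3 per direction and comparison with the smallest unadjusted p. They are also given for TBP and for the pairs TAF4 and TAF4B, TAF9 and TAF9B. Some are values in every library, others are ranges or medians over the libraries or fitted differences alone. From other lists up to 3 genes per comparison are named. The members and lists were chosen with earlier results of these data known. Other tools were Python 3.11.15 with matplotlib 3.10.9, scipy 1.17.1, anndata 0.12.19, pandas 2.3.3, scanpy 1.11.5 and numpy 2.4.6.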

Additional observations from a re-analysis of the deposited data

Results flagged for a closer look

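GTF2F2 and GTF2A2 differed between tags in their phase differences by a test of the difference itself. The G2/M difference was larger in HaloTag than in Dendra2 libraries by 0.38 (log2) for GTF2F2 and by 0.33 for GTF2A2, and the S difference of GTF2F2 by 0.31 (edgeR adjusted p = 0.000243, 0.000518 and 0.00222). Of 30 members these are 2 in G2/M and 1 in S, beside 8.04% and 4.8% of all genes. Neither count is read as unusual. Among all genes that passed, 1105 of 1348 in G2/M and 717 of 805 in S also had the higher difference in HaloTag libraries. The GTF2F2 calls were lost in cells of 10000 to 20000 UMIs (adjusted p = 0.0595 in G2/M and 0.0587 in S), and its S call also at least 0.05 from the boundary (adjusted p = 0.110). GTF2F2 is also the member with the highest variation between cells for its mean and the lowest burst frequency among the 11 members with precise values. Both come from the same counts, and K falls as the variation for a given mean rises, so they are not separate observations.

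In 2 members 1 of the 6 libraries stood far from the others. For TAF3 the S difference was 0.0393 in Dendra2 25R and 0.21 to 0.29 elsewhere. For TAF4 the G2/M difference was 0.31 in HaloTag 25R and 0.51 to 0.64 elsewhere. Chance gives such a gap in about 1 of 20 groups of 6 alike draws, and many groups were looked at. These libraries differ in tag, CTD length and depth, so that rate may not hold for them and was not tested.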

How the results depend on the processing

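No paired analysis was possible because the labels give no replicate numbers across genotypes, so none was run beyond the library block of the phase fits and the CTD term of the tag fit. Alternatives for cells of G1 only, of 10000 to 20000 UMIs, without the top 5% by UMI count, for 1 tag alone, and the tests of tag by phase were chosen after seeing the data. No member passed between tags or CTD lengths under any scaling, filter or left-out library tried, and DESeq2 called 1, GTF2F2 between tags. The members' medians were small and moved. With library totals as scaling they were 0.0620 between tags, -0.0552 for 25R against 52R and 0.143 for 70R against 25R, and the last was 0.00671 in G1-called cells only. Leaving out 1 library gave -0.11 to -0.0329 between tags, -0.0155 to 0.0396 for 25R against 52R, 0.0727 to 0.16 for 70R against 52R and 0.10 to 0.21 for 70R against 25R. For TAF1 between 70R and 52R it gave -0.53 (without HaloTag 70R) to 0.0909 (without Dendra2 70R).

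Of 540 alternative values for the 36 member calls between phases 510 kept the call, 30 lost it and 0 changed sign, and 23 calls held in all. G2/M calls were lost for TAF6 and ERCC3 in Dendra2 libraries only and for GTF2H3 and ERCC3 in cells of 10000 to 20000 UMIs. In S-called cells the members' median was 0.11 without a filter, where 2 members fell, and 0.0281 in cells of 10000 to 20000 UMIs. No share of all genes is set beside that count of falls, so it is not read as a result. The S difference of GTF2F2 between tags lost its call at 0.25 (adjusted p = 0.110) at least 0.05 from the boundary and at 0.30 (adjusted p = 0.0587) in cells of 10000 to 20000 UMIs. Burst size differed between tags for 2 members at a mean of at least 0.5 (17% of all 3188 genes), and for 1 when also centred (7.59%).

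Counts over all genes moved more. Between tags 47 became 1130 with DESeq2, 327 without a filter, 30 without a CTD term, 132 in G1-called cells and 6 to 105 without 1 library. For 25R against 52R 8 became 489, 104, 0 in G1-called cells, 0 with median-of-ratios size factors and 0 to 538 without 1 library. The 70R comparisons, at 0, became 67 (against 52R) and 448 (against 25R) with DESeq2, 2 and 50 without a filter, and up to 2 and 523 without 1 library. In Dendra2 libraries only, 8133 S and 9326 G2/M calls became 5046 and 6118. The causes were not tested. With 2 residual degrees of freedom the tag and CTD fits leave intervals of up to a 2-fold change for most members, and members under 0.5 UMIs per cell have burst values of low precision.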
